A study of Mus musculus with 17 samples.

Results

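Expression of 8 genes of the caspase and inhibitor of apoptosis (IAP) families, Casp1, Casp2, Casp6, Casp8, Casp9, Birc2, Birc3 and Xiap, was followed across 5 forms of p65/RelA in DA1-3b cells, a murine Bcr-Abl+ leukaemia line. The members were taken by gene symbol from the annotation of the array, where 9 probes carried one of these names, 2 of them for Birc3 and 1 for each other gene, of 39297 probes with a value on every array. They are 8 of 30125 names on the array and of 15197 with a tested probe. All 9 probes were well above background on all 17 arrays, none was saturated, and all 9 were among the 19769 probes tested.

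All groups were DA1-3b cells of mouse strain C3H eOuJ, kept in serum-containing DMEM, and each received plasmid DNA for the p65/RelA form that names the group. WT (4 arrays) is the full-length wild-type protein, D361E (4 arrays) is a substitution described as non-cleavable, 1-361 (3 arrays) and 362-549 (3 arrays) are the fragments of those residues, and 1-361+362-549 (3 arrays) is both fragments together. The design compares the genes regulated by WT with those regulated by the mutant and by the fragments that cleavage would give. Every group carried a p65 plasmid, samples with the void plasmid that the labels also name were not analysed here, and WT therefore served as the reference. The labels give no promoter for the plasmids and do not say that the samples of a group came from separate cultures, so p-values measure the spread between these samples, which may be technical.

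Caspases are proteases that cut proteins after aspartate. Initiator caspases are switched on in large complexes (Casp8 at death receptors, Casp9 on the apoptosome, Casp2 on the PIDDosome), executioner caspases such as Casp6 then cut structural proteins, and Casp1 is the inflammasome caspase that matures inflammatory cytokines. IAP proteins restrain this machinery: Xiap binds and blocks caspases directly, while Birc2 and Birc3 are ubiquitin ligases of the TNF receptor complex, and Birc3 is a known target gene of NF-kB. p65 is a subunit of NF-kB with a DNA-binding Rel homology domain in its N-terminal part and a transactivation domain in its C-terminal part, and residue 361 is the caspase cleavage site that the fragments model.

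RNA was labelled with Cy3 and hybridised to 1-colour Agilent arrays. A level is the log2 processed signal minus the 75th percentile of its array, so that 0 stands for that percentile. Levels of different probes were not compared. The 75th percentile itself averaged 678 to 1042 by group, lowest with 362-549 and highest with both fragments. Arrays lay on 6 slides and were scanned on 1 day. The numbers in the sample titles run through the constructs in rounds, 2 to 6, 8 to 12, 14 to 18, and 20 and 21 (WT and D361E only), and the labels do not say what a round was. Of the markers listed for the line, Ptprc, Csf2rb, Il3ra and Itgam had a probe well above background on all 17 arrays, whereas Cd34, Kit, Mpo and Cebpa were so on 0 or 1 of 17, and the 4 listed fibroblast genes on 0 to 4 of 17.

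Among the 8 genes, differences that passed the test were found only in comparisons with the cells that received both fragments. Casp1 was lower there than with WT or D361E, and Birc3, at 1 of its 2 probes, was higher there than with D361E or with 362-549 alone. For 0 of the 9 probes did a difference of D361E, 1-361 or 362-549 from WT pass the test. The largest of the 4 called differences was 0.70 on the log2 scale, a 1.62-fold difference of Birc3 between both fragments and D361E.

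**Figure D1:**
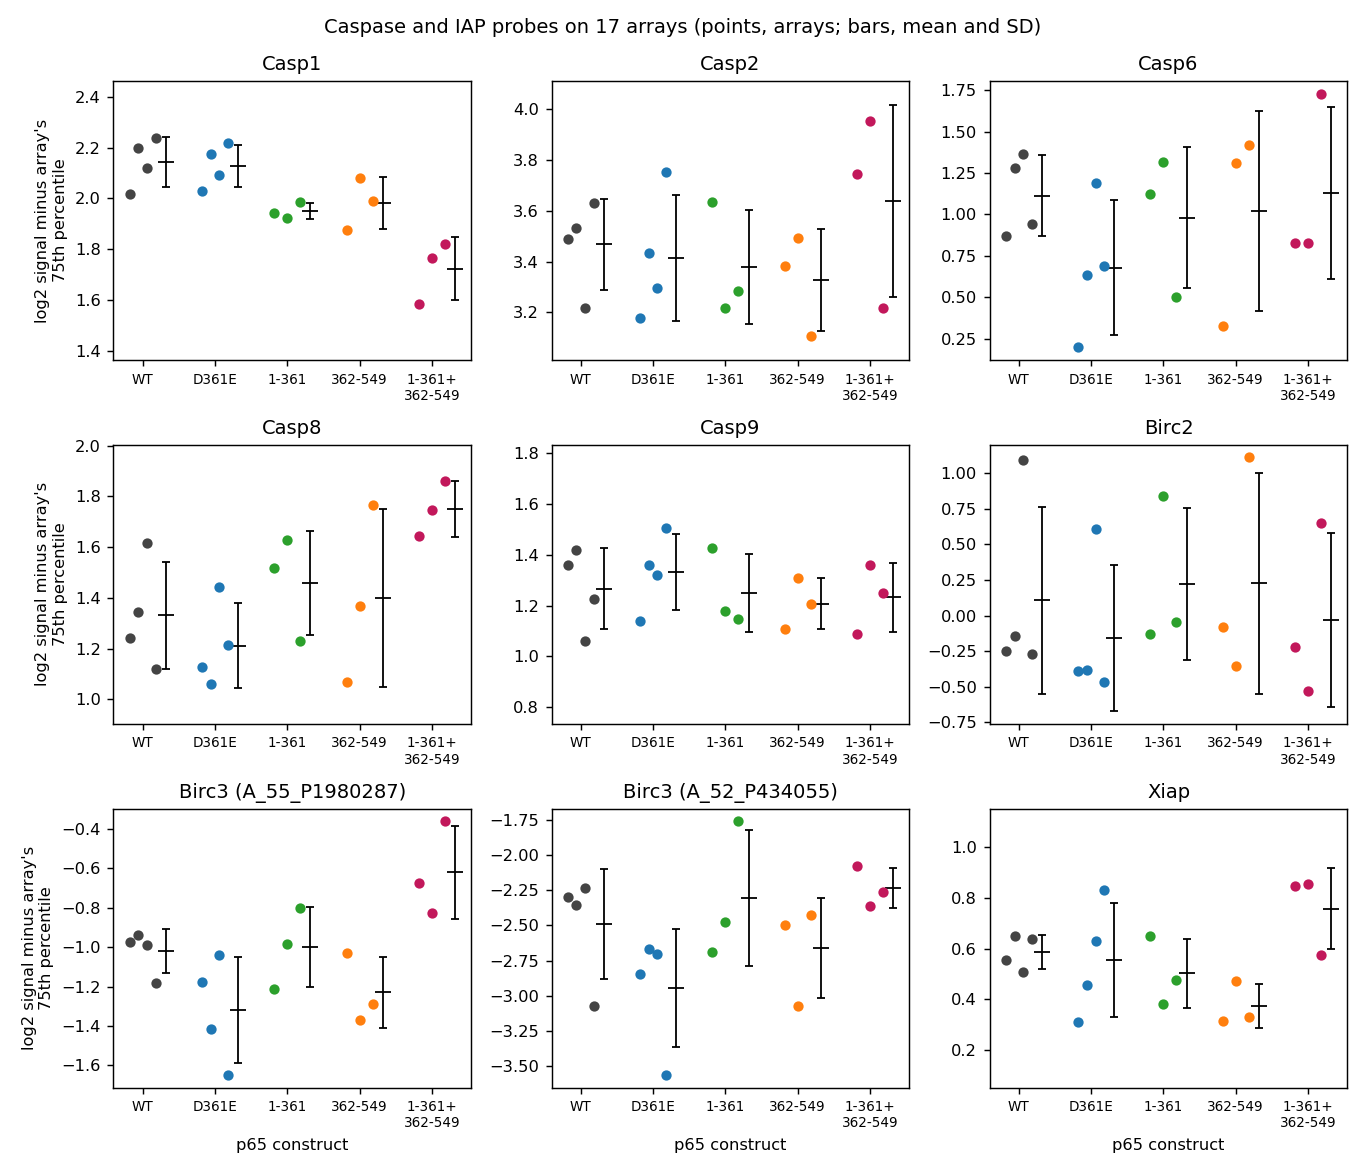
Levels of the 9 probes on the 17 arrays. Each panel is 1 probe with its own y axis (log2 signal minus the 75th percentile of the array), the x axis gives the p65 construct, points are arrays in replicate order and bars show the mean and SD. The 3 arrays with both fragments (1.59 to 1.82) lay below the other 14 for Casp1, and 1 array of each construct stood high for Birc2.

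Casp1, the inflammasome caspase, was read by a probe at chr9:5307206-5307265 of build mm9, plus strand. Its levels were 2.02, 2.20, 2.12 and 2.24 in WT and 2.03, 2.17, 2.09 and 2.22 with D361E. They were 1.94, 1.92 and 1.99 with 1-361 and 1.88, 2.08 and 1.99 with 362-549. With both fragments they were 1.59, 1.77 and 1.82, the 3 lowest of the 17 values. The means ran from 2.14 ± 0.10 (SD, n = 4) in WT through 2.13 ± 0.08 (n = 4), 1.98 ± 0.10 (n = 3) and 1.95 ± 0.03 (n = 3) for D361E, 362-549 and 1-361 to 1.72 ± 0.12 (n = 3), and no 2 neighbours in that order differed by the test.

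With both fragments Casp1 fell by 0.42 ± 0.11 (SE) against WT (limma adjusted p = 0.0428) and fell by 0.40 ± 0.11 against D361E (adjusted p = 0.0333). Against 1-361 and 362-549 the differences were -0.23 ± 0.12 and -0.26 ± 0.12 (adjusted p = 0.222 and 0.155), with no overlap between the groups, and with the round of title numbers as a block that from 362-549 was called (-0.26 ± 0.09, adjusted p = 0.0321). The call against WT was lost without any 1 of 12 arrays, among them replicates 1 and 2 with both fragments, WT replicates 2, 3 and 4, all 3 arrays of 1-361, and replicates 2 and 3 of both 362-549 and D361E. Over all 17 fits that left out 1 array the change ran from -0.47 to -0.35. The call against WT was also lost with slide as a block (-0.31 ± 0.17), and the difference was -0.25 within the 1 slide that held both groups. The call against D361E was lost with slide as a block (adjusted p = 0.185), without replicate 1 or 2 with both fragments, without D361E replicate 2 or 3 and without WT replicate 2, and the 3 differences within slides were -0.51 to -0.21.

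Scaling bore on Casp1 directly. Without scaling between arrays the difference with both fragments was -0.23 against WT, 0.00 against D361E, 0.20 against 1-361 and 0.35 against 362-549. The median change of all probes moved by 0.19, 0.41, 0.43 and 0.61 in these comparisons when the scaling was left out. Scaling subtracts 1 value from every probe of an array. For the signal as deposited Casp1 was still lower than in WT, though not called, but it was not lower than with D361E, 1-361 or 362-549. Those directions hold only relative to the 75th percentile. Within rounds of title numbers the difference from WT was -0.43 to -0.30 in 3 rounds.

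Casp8, the initiator caspase of death receptor complexes, was read at chr1:58901601-58901660 of mm9. Its levels were 1.24, 1.34, 1.62 and 1.12 in WT and 1.13, 1.06, 1.44 and 1.22 with D361E. They were 1.52, 1.63 and 1.23 with 1-361, and 1.07, 1.37 and 1.77 with 362-549. With both fragments they were 1.64, 1.75 and 1.86, above every array of WT, D361E and 1-361 and above 2 of the 3 with 362-549. The difference from WT was 0.42 ± 0.18 (95% interval 0.05 to 0.79, adjusted p = 0.227) and from D361E 0.54 ± 0.18 (0.17 to 0.91, adjusted p = 0.0715), so neither passed. With the round of title numbers as a block the difference from WT was 0.39 ± 0.11 and was called (adjusted p = 0.0224), and that from 362-549 was 0.35 ± 0.11 (0.0294, against 0.218 without the block).

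Casp9, the initiator caspase of the apoptosome, showed the smallest spread between constructs of the 9 probes. Its probe lay at chr4:141371773-141371832 of mm9, and its levels ran from 1.06 to 1.51 over the 17 arrays. The means were 1.33 ± 0.15 (SD, n = 4) with D361E, 1.27 ± 0.16 (n = 4) in WT, 1.25 ± 0.15 (n = 3) with 1-361, 1.23 ± 0.14 (n = 3) with both fragments and 1.21 ± 0.10 (n = 3) with 362-549. All 5 groups overlapped, and the difference of both fragments from WT was -0.03 with a 95% interval of -0.32 to 0.25.

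Casp2, the caspase of the PIDDosome, had its probe at chr6:42232367-42232426 of mm9. Its levels were 3.49, 3.53, 3.22 and 3.63 in WT, 3.18, 3.43, 3.30 and 3.75 with D361E, and 3.63, 3.22 and 3.28 with 1-361. They were 3.38, 3.49 and 3.11 with 362-549 and 3.74, 3.95 and 3.22 with both fragments, where 2 arrays stood high and the third did not. The difference of both fragments from WT was 0.17 ± 0.19 (adjusted p = 0.696), which did not pass.

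Casp6, the executioner caspase that cuts lamin A, was measured at chr3:129616453-129616512 of mm9 with a wide spread. Its levels were 0.87, 1.28, 1.36 and 0.94 in WT and 0.20, 0.64, 1.19 and 0.69 with D361E. They were 1.13, 1.32 and 0.50 with 1-361, 0.33, 1.31 and 1.42 with 362-549, and 0.83, 0.83 and 1.73 with both fragments. Every pair of constructs overlapped. D361E had the lowest mean, 0.43 ± 0.29 (SE) under WT with a 95% interval of -1.05 to 0.18, and it was the lower of the pair in 4 of 4 rounds (-0.67 to -0.17), but the difference did not pass (adjusted p = 1.00).

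Birc3, the NF-kB target among the members, was read by 2 probes on the minus strand of chromosome 9, at chr9:7856162-7856221 (A_52_P434055) and at chr9:7854409-7854468 (A_55_P1980287) of mm9. Their sequences are shown as the array annotation gives them, 5′ to 3′ in lower case, because the 2 probes did not give the same calls. Each has 1 forward reading frame without a stop codon.
A_52_P434055: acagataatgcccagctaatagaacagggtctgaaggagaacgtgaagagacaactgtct
A_55_P1980287: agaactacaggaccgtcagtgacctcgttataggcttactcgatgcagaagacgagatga

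At A_55_P1980287 the levels were -0.97, -0.94, -0.99 and -1.18 in WT and -1.18, -1.41, -1.04 and -1.65 with D361E. They were -1.21, -0.98 and -0.80 with 1-361 and -1.03, -1.37 and -1.29 with 362-549. With both fragments they were -0.67, -0.83 and -0.36, above every array of WT, D361E and 362-549, while 1 array of 1-361 overlapped. The means were -0.62 ± 0.24 (SD, n = 3) with both fragments, -0.999 ± 0.205 (n = 3) with 1-361, -1.02 ± 0.11 (n = 4) in WT, -1.23 ± 0.18 (n = 3) with 362-549 and -1.32 ± 0.27 (n = 4) with D361E, and no 2 neighbours in that order differed by the test.

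With both fragments this probe rose by 0.70 ± 0.17 (SE) against D361E (limma adjusted p = 0.0167) and by 0.61 ± 0.18 against 362-549 (adjusted p = 0.0385). The difference from WT was 0.40 ± 0.17 (95% interval 0.04 to 0.76, adjusted p = 0.233) and did not pass. That from 1-361 was 0.38 ± 0.18 (adjusted p = 0.185), and it was called with the round of title numbers as a block (0.38 ± 0.13, adjusted p = 0.0367). The call against D361E was lost without replicate 1 with both fragments or D361E replicate 2 and with slide as a block (0.68 ± 0.20, adjusted p = 0.101), and the differences within 3 slides were 0.37 to 0.82. The call against 362-549 was lost without any 1 of 8 arrays (each array with both fragments, 362-549 replicates 2 and 3, D361E replicate 2, and WT replicates 1 and 2) and with slide as a block (0.57 ± 0.28, adjusted p = 0.416), and no slide held both groups. Without scaling the differences were 1.11 from D361E and 1.22 from 362-549, and both were called. That setting raised the median change of all probes by 0.41 and 0.61 and called 15.5% and 34.3% of them. A higher probe is thus favoured there, and these calls are no test of robustness. Neither difference was called with normexp background correction.

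At A_52_P434055 the levels were -2.30, -2.36, -2.23 and -3.07 in WT and -2.85, -2.67, -2.70 and -3.56 with D361E. They were -2.69, -2.47 and -1.76 with 1-361, -2.50, -3.07 and -2.42 with 362-549, and -2.08, -2.36 and -2.26 with both fragments. The arrays with both fragments lay above all arrays of D361E and of 362-549, and 1 of them lay above every WT array while the others overlapped with WT. The differences, 0.71 ± 0.28 from D361E (adjusted p = 0.128) and 0.43 ± 0.30 from 362-549 (0.343), had the sign of the first probe and did not pass. The pooled SD within groups was 0.38 at this probe and 0.21 at A_55_P1980287, and the Pearson correlation of the pair over the 17 arrays, which share constructs and rounds, was 0.77.

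**Figure D2:**
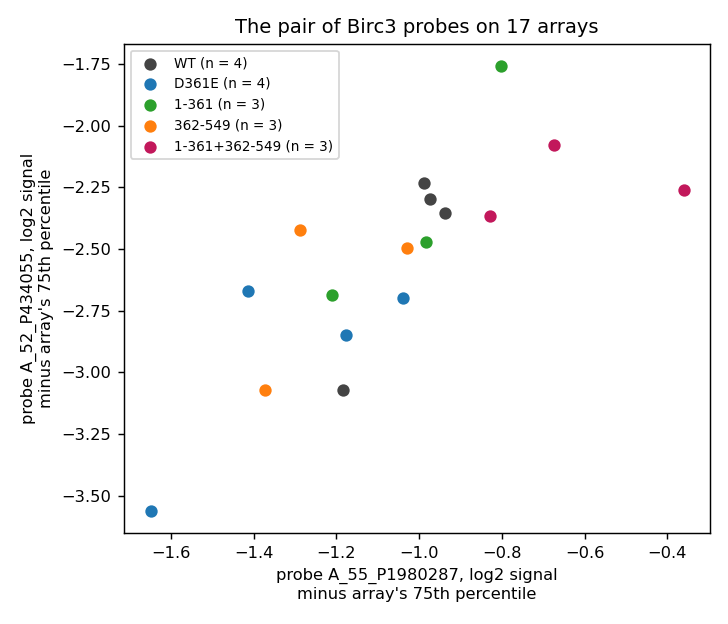
The pair of Birc3 probes on the 17 arrays. Each point is 1 array, coloured by construct, and both axes are log2 signal minus the 75th percentile of the array. The 3 arrays with both fragments lie to the right at -0.83 to -0.36 on the x axis, and D361E replicate 4 is lowest on both axes.

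Birc2, the neighbour of Birc3 on chromosome 9 and a ubiquitin ligase of the same complex, was read at chr9:7818688-7818747 of mm9, minus strand. Its levels were -0.25, -0.14, 1.09 and -0.27 in WT and -0.39, -0.39, 0.61 and -0.47 with D361E. They were -0.13, 0.84 and -0.04 with 1-361, -0.08, -0.35 and 1.11 with 362-549, and -0.22, -0.53 and 0.65 with both fragments. In each construct 1 array stood high. These 5 arrays carry the numbers 14 to 18 in their titles, and they lay on 5 different slides.

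Of the variation of Birc2 over the 17 arrays, 91.3% lay between rounds and 7.72% between constructs. Birc2 averaged 0.86 (range 0.61 to 1.11) in the round of numbers 14 to 18 and -0.20, -0.31 and -0.37 in the others. For Casp1, 32.8% lay between rounds and 79.0% between constructs, shares that overlap because the design is not balanced. Casp6 (68.2% against 18.0%), Casp2 (58.3% against 18.7%), Birc3 at A_52_P434055 (55.6% against 39.8%) and Casp9 (51.8% against 11.4%) also varied more between rounds than between constructs. The shares of Casp8 were about even (49.3% against 48.4%). Birc3 at A_55_P1980287 (31.5% against 64.9%) and Xiap (24.4% against 46.8%) varied less between rounds than between constructs. What the rounds contributed to the differences between constructs was not tested beyond the fits with the round as a block.

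**Figure D3:**
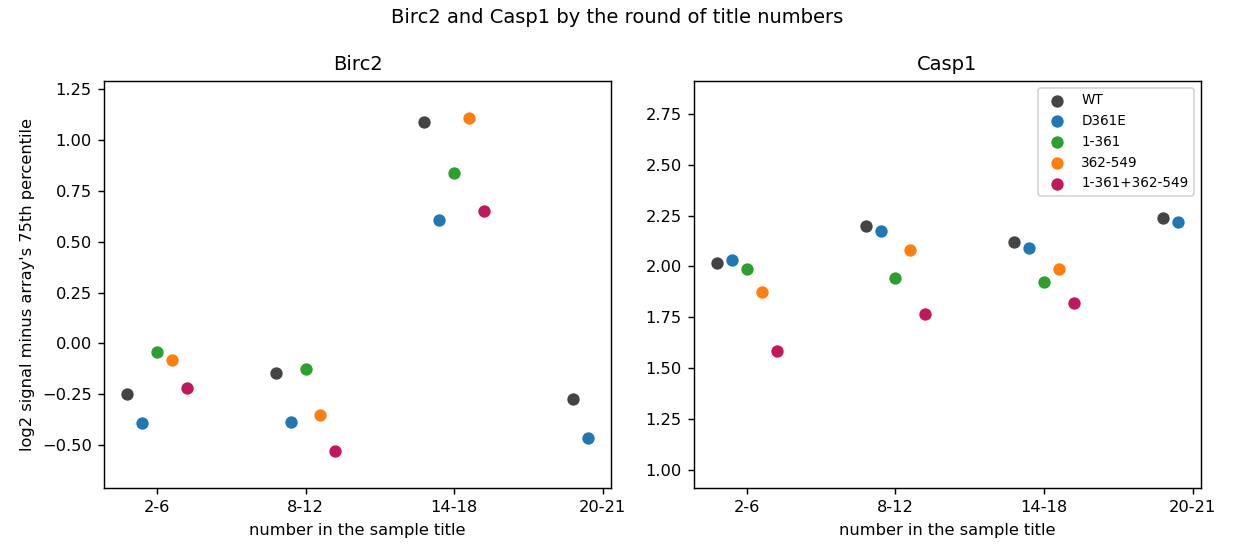
Levels of Birc2 (left) and Casp1 (right) by the number in the sample title. Each point is 1 array, coloured by construct, and the y axes span the same width of log2 signal minus the 75th percentile of the array. All 5 Birc2 values in the round of numbers 14 to 18 (0.61 to 1.11) lie above the other 12, and Casp1 is lowest with both fragments in each of the 3 rounds that hold it.

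Birc2 did not differ between any 2 constructs by the test. In the fit without rounds its 95% interval for both fragments against WT was -1.06 to 0.79, the widest of the 9 probes in that comparison. That width includes the spread between rounds, and within 3 rounds the difference was -0.44 to 0.03.

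Xiap, the direct caspase inhibitor, was read at chrX:39462720-39462779 of mm9. Its levels were 0.55, 0.65, 0.51 and 0.64 in WT and 0.31, 0.46, 0.63 and 0.83 with D361E. They were 0.65, 0.38 and 0.48 with 1-361, 0.32, 0.47 and 0.33 with 362-549, and 0.85, 0.86 and 0.57 with both fragments. The arrays with 362-549 lay below all arrays of WT and of both fragments. The difference of both fragments from 362-549 was 0.39 ± 0.15 (95% interval 0.07 to 0.70, adjusted p = 0.0922) and did not pass, but it was called with the round as a block (0.39 ± 0.12, adjusted p = 0.0224). That of 362-549 from WT was -0.22 ± 0.14 (adjusted p = 0.811).

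The comparison of D361E with WT called 0 of the 9 probes, where 0.435% of all 19769 were called (0 of 9 and 1.52% with the round as a block). The 9 differences ran from -0.46 (Birc3 at A_52_P434055) to 0.07 (Casp9), 8 of them below 0, with a median of -0.12 against 0.02 over all probes. For 1-361 against WT the count was again 0 of 9 (background 0.637%), with differences from -0.19 to 0.18 and a median of -0.02 against 0.04. For 362-549 against WT it was 0 of 9 (background 0.622%), from -0.22 to 0.12 and a median of -0.14 against 0.05. The median size of the 9 differences was 0.12, 0.12 and 0.14 in these comparisons, and 0.13, 0.17 and 0.18 over all probes. At an unadjusted limma p under 0.05 the count was 0 of 9 in each, against 4.61%, 7.12% and 8.30% of all probes. Groups without overlap numbered 0 (D361E, 3.29% of all probes), 1 (1-361, Casp1, 9.7%) and 1 (362-549, Xiap, 9.22%). The 95% intervals reached 1.12 below and 1.04 above 0, both at Birc2 in the fit without rounds. With the round as a block, D361E differed from WT by -0.27 ± 0.10 (SE) at Birc2 (adjusted p = 0.32), by -0.46 ± 0.16 at Birc3 A_52_P434055 (0.257) and by -0.30 ± 0.11 at A_55_P1980287 (0.283). None of these passed, and within rounds D361E was the lower in 4 of 4 at Birc2 (-0.48 to -0.14), at A_52_P434055 (-0.55 to -0.31) and at A_55_P1980287 (-0.48 to -0.05). It was also lower in 4 of 4 at Casp6, but higher in 1 of 4 at Casp1 and Casp8 and in 2 of 4 at Casp2, Casp9 and Xiap. How many of all probes were lower in 4 of 4 was not determined. Within 2 slides the differences were -0.22 to -0.11 at Birc2, -1.26 to 0.40 at A_52_P434055 and -0.68 to -0.23 at A_55_P1980287.

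With both fragments against WT, 1 of 9 probes was called, Casp1, where 4.57% of all probes were called, and 3 of 9 had groups without overlap (16.1% of all probes), the same number as passed an unadjusted limma p of 0.05 (17.1%). Against D361E 2 of 9 were called (background 8.71%), against 362-549 1 of 9 (13.2%) and against 1-361 0 of 9 (9.37%). Groups without overlap numbered 4 of 9 (17.3% of all probes), 4 of 9 (28.4%) and 2 of 9 (29.3%) in these comparisons. With the round as a block 2 of 9 were called against WT (background 29.6%), 4 of 9 against 362-549 (38.5%) and 1 of 9 against 1-361 (35.7%). With 9 probes, 1 call more or less moves the share by more than 10 points, and these counts are not read as particular to the family. The comparisons with WT share the WT arrays, and those with both fragments share those 3 arrays, so they are not independent. Among D361E, 1-361 and 362-549, 0 of 9 were called in each pair (background 0.916% for 1-361 against D361E, 1.16% for 362-549 against D361E and 0.536% for 362-549 against 1-361). For 362-549 against 1-361 the count was also 0 of 9 with the round as a block (1.54% of all probes). In the same order 1, 0 and 0 of 9 had groups without overlap (9.51%, 9.16% and 10% of all probes). An F-test over the 4 comparisons with WT called 0 of 9 (background 7.55%), with the smallest adjusted p, 0.0906, at Birc3 A_55_P1980287 and 0.107 at Casp1.

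**Figure D4:**
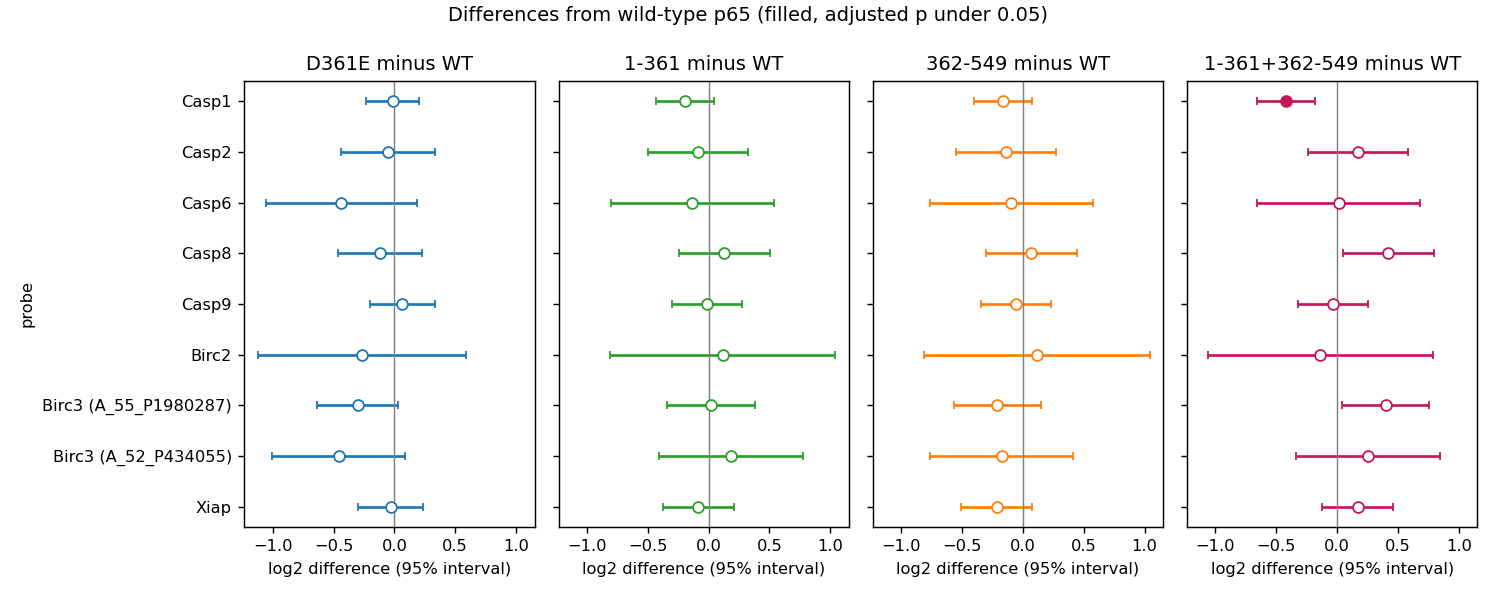
Differences of each construct from WT for the 9 probes. The x axis is the log2 difference with its 95% interval from limma, the y axis lists the probes, and filled points passed an adjusted p of 0.05. Casp1 with both fragments (-0.42) is the 1 filled point of 36.

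**Figure D5:**
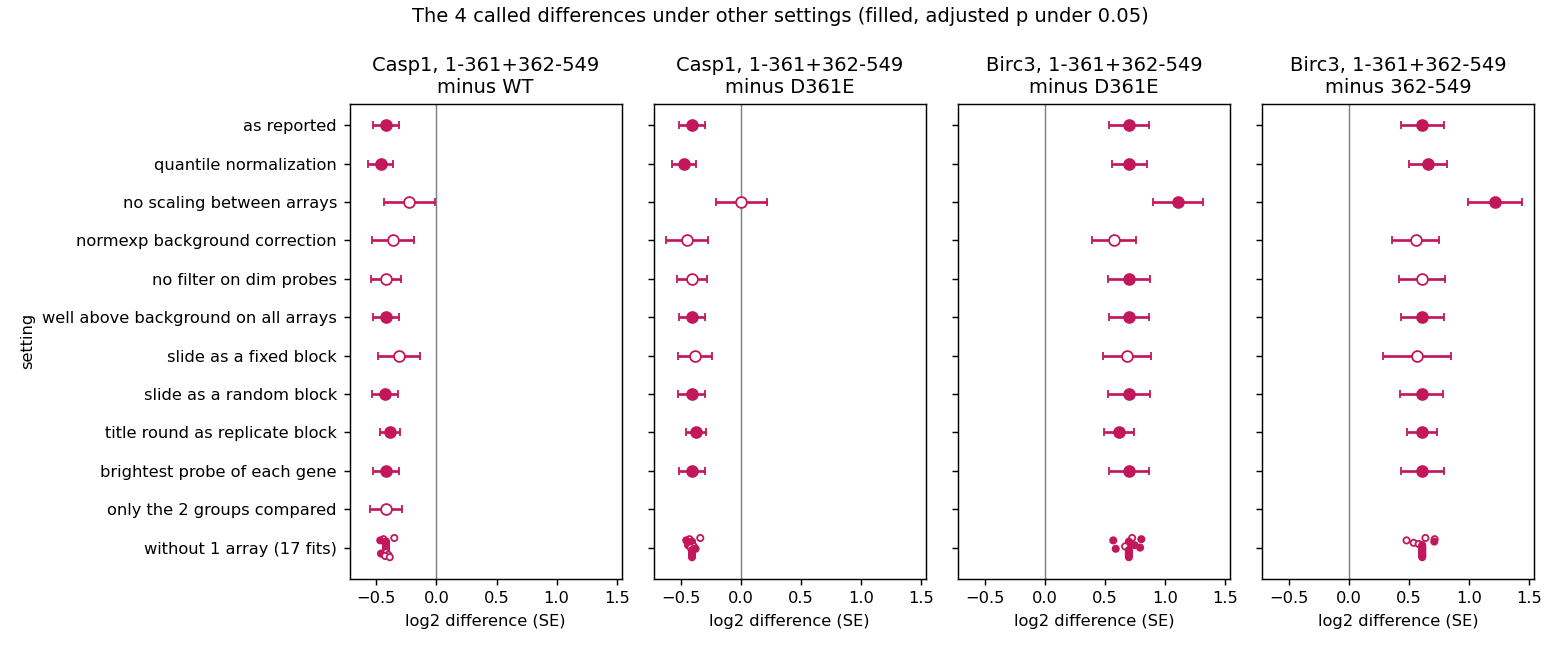
The 4 called differences under other processing. The x axis is the log2 difference with its SE, the y axis lists the settings, filled points passed an adjusted p of 0.05, and the last row holds the 17 fits that leave out 1 array each. The Birc3 differences run from 0.48 to 1.22 over both panels and Casp1 against D361E is 0.00 without scaling, a setting that moves all probes upward in these comparisons.

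Genes that work with the members were taken from lists. Beside the counts from these lists and from the marker lists stand the shares of all probes called against WT. They were 4.57% with both fragments, 0.622% with 362-549, 0.637% with 1-361 and 0.435% with D361E. Genes of these lists that are named without a call were picked after their values were seen. Casp4, an inflammatory caspase and the neighbour of Casp1 on chromosome 9, differed from WT by 0.16 ± 0.15 and 0.06 ± 0.16 with both fragments at its 2 probes, and neither passed. Of the other genes with BIR domains 6 of 8 were tested (Birc5, Birc6, Naip1, Naip2, Naip5 and Naip6), and 0 were called against WT.

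The platforms and receptors that switch on caspases showed 0 calls against WT among 13 tested genes (22 probes), with a median of 0.23 for both fragments against 0.04 over all probes. Cflar, the Casp8-like inhibitor encoded next to Casp8, differed by -0.51 to -0.17 over its 4 probes. Ripk1, a kinase of the TNF receptor complex, came nearest to a call (0.67 ± 0.19, adjusted p = 0.0567).

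Of the antagonists and partners of IAPs, 7 of 8 genes were tested and 1 was called against WT. Traf1, an adaptor that binds Birc2 and Birc3 and a known NF-kB target, fell by 1.14 ± 0.23 with 362-549 (adjusted p = 0.0307), from 0.67 ± 0.29 (SD, n = 4) to -0.47 ± 0.35 (n = 3). Xaf1, which binds Xiap, differed by 0.92 ± 0.29 with both fragments (adjusted p = 0.0940) and did not pass.

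Of the inflammasome genes, 7 of 10 were tested and 1 was called with both fragments against WT. Nlrp3, a sensor that recruits Casp1, was at least 2.29-fold and 2.08-fold higher at its 2 probes (adjusted p = 0.0183 and 0.0208). Both probes were well above background on all 3 arrays with both fragments and on 0 of 4 WT arrays. They passed the filter on dim probes only through the group where they are high, so their call is a description and supports nothing further. The bound sets the mean of the 3 arrays against the lowest signal well above background in WT, or the probe's own where that was higher. Il1b and Il18, the cytokines that Casp1 matures, did not pass the filter, and Gsdmd, its pore-forming substrate, differed by -0.10 ± 0.13.

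Among caspase substrates, 15 of 16 genes were tested and 3 fell with both fragments against WT, with 0 higher. In that comparison 4.57% of all probes were called, 37.3% of them higher, and the count is not read as particular to substrates. Lmna, which encodes the lamins A and C, fell by 1.09 ± 0.15 (adjusted p = 0.000302), from 4.42 ± 0.16 (SD, n = 4) to 3.33 ± 0.14 (n = 3). Dfna5, a gasdermin, fell by 0.68 ± 0.14 (adjusted p = 0.0104) and, with 362-549, by 0.79 ± 0.14 (adjusted p = 0.0128). Gsn, an actin-severing protein, fell by 0.94 ± 0.24 at 1 of its 2 probes (adjusted p = 0.0319, and 0.0703 at the other). The median over the 21 probes of the list was 0.08 against 0.04 over all probes. Rela, the substrate that the constructs encode, differed from WT by at most 0.08 ± 0.11 at its 1 probe, and whether that probe reads the plasmid transcripts was not tested.

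Markers of other cell types also differed between the constructs. Of the mast cell and basophil list, 6 of 7 genes were tested and 5 were called lower with both fragments than with WT (Cma1, Cpa3, Fcer1a, Mcpt4 and Mcpt8). Its summed level, in multiples of the 75th percentile, was 0.312 to 0.423 with both fragments, 7.15 to 12.6 in WT, 2.78 to 3.89 with D361E, 3.15 to 5.43 with 362-549 and 5.94 to 10.2 with 1-361, and Ms4a2 of that list was well above background on 0 of 17 arrays. With both fragments Cma1 was well above background on all 3 arrays, Mcpt4 on 2, Cpa3 on 1, and Fcer1a and Mcpt8 on 0. All but Cma1 thus passed the filter on dim probes only through other groups, and their calls are a description that supports nothing further. The list for the line itself summed to 35.6 to 56.4 with both fragments and 77.1 to 87.6 in WT, with Csf2rb, 1 of 4 tested genes, called lower. The megakaryocyte list summed to 110.1 to 183.2 with both fragments and 38.9 to 51.8 in WT. Pf4 alone of its 4 tested genes was called higher, with a mean log2 level of 6.88 against 4.68 in WT. As the brightest gene of each list, Csf2rb and Pf4 weigh most in these sums, which are not read as a shift of the whole list. Of the other marker lists, with both fragments against WT, Cd3d and Cd3g were called lower of 5 tested T cell genes. The median over the 5 probes of that list was 0.10 against 0.04 over all probes, so the list as a whole was not lower. Emr1, of 3 tested macrophage genes, was called lower at 2 probes, well above background on 0 and 2 of 3 arrays with both fragments. Hbb-b1, of 3 tested erythroid genes, was called higher. Only 1 gene each of the B cell, natural killer and neutrophil lists was tested, and 0 were called. Some of these markers also differed from WT in groups where no member was called. Hbb-b1 was higher than WT with every construct, by 5.47 on the log2 scale with 362-549, 3.16 with 1-361, 2.38 with D361E and 1.33 with both fragments. Of the mast cell and basophil list, Cma1 and Cpa3 were called lower with D361E, and Cma1 also with 362-549. With 1-361, Cpa3 and Fcer1a were called lower, whereas Mcpt4 was called higher, by 1.69. Fcer1a was well above background on 0 of 3 arrays with 1-361. Pf4 and Cd3d were called higher with 1-361, and Cd3g with 1-361 and 362-549. The Cd3g probe was well above background on 9 of 17 arrays, 3 with 1-361, 3 with 362-549, 2 in WT and 0 with both fragments. It passed the filter on dim probes only through groups where it is high, so its calls are a description and support nothing further. The part of these markers in the differences of Casp1 and Birc3 was not tested, and fewer cells of a type cannot be told apart from less RNA per cell in these bulk samples.

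The members did not move as 1 block across the 17 arrays. The highest correlations between probes of different members were those of Casp2 with Xiap (Pearson's r = 0.83), Casp6 with Casp8 (0.73) and Casp6 with Birc2 (0.65), and the lowest were those of Birc2 with Casp2 (-0.71) and of Birc3 at A_55_P1980287 with Casp1 (-0.66). These are descriptions over arrays that share constructs and rounds.

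Of 10114 other genes measured on all arrays, those whose level followed a member most closely were named by their correlation over the 17 arrays. They were Txndc16 (0.97), Cd84 (0.91) and Mboat7 (0.90) for Casp1, and D6Mm5e (0.92), Il2rb (0.91) and Exoc6 (0.88) for Birc3 at its brighter probe. For Birc2 they were Maff (0.98), Kdm4b (0.97) and Cdkn1b (0.97). For Casp8 they were Nt5c3 (0.97), P2ry1 (0.93) and Fundc2 (0.92), and for Casp6 Ube2r2 (0.95), Rnf181 (0.95) and Ift52 (0.92). Casp2 was closest to Zbtb45 (0.97), Cbfb (0.96) and Hnrnpm (0.96), and Xiap to Sdhaf2, Arfgef2 and Polr2k (0.93 each). Casp9, whose level varied least, was closest to Bin3 (0.80).

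Because p65 binds kappaB sites, the start sites of the members were searched for the kappaB consensus on both strands, in the RefSeq promoter table. It was found in 0 of 11 windows of 250 bases before a start site of the 8 genes and in 7.25% of 32851 windows of all genes. This says only that the consensus letters are not in these windows.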

How the data were processed

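RNA of 17 DA1-3b samples was measured on 1-colour Agilent arrays. Per the file headers, the deposited intensity values are background-subtracted processed signals from Agilent Feature Extraction 10.7.3.1 (protocol GE1_107_Sep09, probe positions on mm9). The deposited series values are the same signals with a largest relative difference of 0.

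Control spots and outlier-flagged spots were left out, which removed 132 of 39429 probes, and spots of a probe were averaged. Levels are the log2 of the deposited intensity minus the 75th percentile of each array. A probe was tested where all arrays of some group had it well above background (19769 probes), in 1 limma fit over 5 groups (residual df 12), with Benjamini-Hochberg adjustment within each comparison and a threshold of 0.05. The script was tested on simulated data. R 4.3.3, limma 3.58.1, data.table (version 1.17.8) and matplotlib 3.10.9 were used.

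Every probe named for a member was reported. From each pathway list, up to 4 called genes with the smallest adjusted p per comparison with WT were named, and for each member the 3 most correlated other genes. The members and lists were chosen with earlier results of these data known. The number of arrays limits the precision.

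Alternatives were normexp background correction, quantile normalization or no scaling between arrays, other filters, slide or title round as a block, only the 2 groups compared, the brightest probe per gene, and leaving out each array. The rounds come from the title numbers. Deviations from group means correlated above 0.1 in every same-round pair for both fragments with WT (0.144 to 0.726), 362-549 (0.182 to 0.445) and 1-361 (0.107 to 0.321), for 362-549 with 1-361 (0.577 to 0.723) and for D361E with WT (0.157 to 0.697), but not in the other 5 comparisons of groups. Above 0.1 were 25 of 31 same-round pairs and 19 of 84 pairs from different rounds, the latter up to 0.67. Replicates 1 and 2 with both fragments correlated with WT replicate 4, of another round, at 0.528 and 0.526. With the WT array of their own round the values were 0.144 and 0.182, so the pairing by round is not established. Sequence windows came from the RefSeq promoter table (GRCm38.p6), and annotation of exons on mm9 was not used here. Some genes of the pathway lists are not reported here.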

Additional observations from a re-analysis of the deposited data

Results flagged for a closer look

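Among the 18 groups of 4 arrays (9 probes, WT and D361E), 3 held an array far from the others, where chance gives about 1 in 20. Birc2 in WT replicate 3 was highest at 1.09, with a gap to the next array of 0.906 of the range of the group. Birc2 in D361E replicate 3 was highest at 0.61, with a gap of 0.924 of the range. Both belong to the title round of numbers 14 to 18, in which all 5 constructs had their highest Birc2 level. Birc3 at A_52_P434055 was lowest in WT replicate 4, at -3.07, with a gap of 0.853 of the range, and at the other Birc3 probe the same array was also the lowest of WT (-1.18). D361E replicate 4, the other array of the round of numbers 20 and 21, was likewise the lowest of its group at both probes (-3.56 and -1.65). At A_52_P434055 that round averaged -3.32, against -2.63 to -2.30 in the other rounds. Only WT and D361E have it, and the difference of both fragments from D361E at this probe was 0.71 with all arrays and 0.50 without D361E replicate 4.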

How the results depend on the processing

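Of 11 differences of members followed under each setting, quantile normalization, slide as a random block and the filter for all arrays changed 0 calls. No filter lost 3, normexp 4, slide as a fixed block 4 and no scaling 2, 1 of them with its sign turned (with 3 gained), and the cause was not tested. Without scaling, Casp1 with both fragments turned to 0.0046 against D361E and to 0.35 against 362-549. Members called with both fragments against WT (1) numbered 0 with no scaling, normexp, no filter, slide as a fixed block or only the 2 groups compared, and 0 to 1 with 1 array left out. In the 6 comparisons among the other constructs (3) they numbered 9 with no scaling, 0 with normexp, 1 with no filter, 0 with slide as a block, and 0 to 3 with 1 array left out. In the F-test (0) they numbered 2 with quantile normalization, 2 with no scaling and 0 with any array left out.

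Of all probes, calls for D361E against WT (86) numbered 10 with normexp, 57 with no filter, 33 with the filter for all arrays, 28 with slide as a block, 53 with only the 2 groups, and 47 to 105 with 1 array left out. Those for 1-361 (126) numbered 29 with normexp, 61 with the filter for all arrays, 45 with slide as a block and 77 to 143 with 1 array left out. Those for 362-549 (123) numbered 27, 52 and 74 in the same settings, 78 with only the 2 groups, and 89 to 138. Those for both fragments (904) numbered 507 with no scaling, 205 with normexp, 283 with slide as a block, 504 with only the 2 groups, and 506 to 1422. F-test calls (1493) numbered 374 with normexp, 990 with no filter, 534 with slide as a block, and 806 to 2343.

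Without scaling the share of calls that were higher went from 43.4% to 86.7% for both fragments against D361E, from 38.8% to 94.5% against 362-549 and from 41.3% to 86.1% against 1-361.

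With the title round as replicate block, the paired fit called 2 members for both fragments against WT, 3 in the F-test and 9 in the 6 other comparisons. Over all probes it called 300 for D361E, 230 for 1-361, 227 for 362-549 and 5853 for both fragments against WT, and 6824 in the F-test. For both fragments against D361E, where not every same-round pair correlated, it called 4 of 9 members (38.7% of all probes): Casp8 (0.50), both Birc3 probes (0.51 and 0.62) and Casp1 (-0.37). The block lost 0 of the 4 member calls. For both fragments against WT, D361E and 362-549 it called 29.6%, 38.7% and 38.5% of all probes. The reported fit called 4.57%, 8.71% and 13.2% of them. A fit that calls so many more probes readily keeps earlier calls, so this is no test of robustness.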
